A study of Mus musculus with 54 samples.

Results

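The Slc25 genes encode the mitochondrial carriers, membrane proteins that move metabolites, nucleotides, cofactors and ions between mitochondria and the cytosol. Members were taken as every row of the deposited count table whose symbol begins with Slc25a and a number, which gave 47 of 35976 gene rows. They were examined because Slc25a1, the citrate carrier, was among the genes that differed in the trigeminal ganglion (TG) of sensory nerve-specific knockouts, so its result was known when the family was chosen.

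The study asked what the miR-183/96/182 cluster (miR-183C) does in corneal sensory nerves and in resident myeloid cells of the mouse cornea. 3′ mRNA sequencing, which yields 1 tag per transcript, was run on whole TG and whole cornea, and on cells sorted for Csf1r-EGFP, a myeloid reporter, from cornea (CRMCs) and spleen. Male mice of 8 to 12 weeks were used. In SNS-CKO mice, Nav1.8-Cre(+/-) deleted miR-183C f/f in sensory neurons, on a background of R26-LSL-RFP(+/+) and Csf1r-EGFP(+/+), and their WT littermates carried the same Nav1.8-Cre(+/-) and reporters with miR-183C+/+. Nav1.8-Cre is active mainly in small nociceptors and in fewer large neurons, so neurons and glia that keep the cluster are also in the TG libraries. In MS-CKO mice, LysM-Cre(+/-) deleted miR-183C f/f in myeloid cells on Csf1r-EGFP(+/+), and their WT littermates, LysM-Cre(-/-), kept the same floxed cluster and reporter, so that MS-CKO and WT also differ in the Cre knock-in, which disrupts Lyz2. KO mice carried a gene trap in both alleles of miR-183C (GT/GT) and Csf1r-EGFP on a mixed 129S2 and C57BL/6 background. WT littermates of the KO strain carried miR-183C+/+ and Csf1r-EGFP, and only sorted cells of the KO strain were analysed here. The SNS and MS strains were also on such a mixed background. TG and cornea were each represented by 3 SNS-CKO libraries with 4 of their WT littermates, and 5 MS-CKO libraries with 5 of theirs. Sorted CRMCs and sorted spleen cells were each represented by 1 KO pool, 1 MS-CKO pool and the 2 WT pools of those strains. Column names containing NACC were read as the SNS strain, and the opposite reading was run as an alternative, given beside the first result it changes. The table's columns for KO-strain TG and cornea repeat columns of the MS strain value for value, so the strain of those shared libraries rests on the labels alone.

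Mitochondrial carriers share a fold of repeated transmembrane helices and exchange their substrates across the inner membrane. Citrate exported by Slc25a1 in exchange for malate is a source of cytosolic acetyl-CoA for lipid synthesis and protein acetylation. Neurons depend on the ADP/ATP carriers, the phosphate carrier and the aspartate/glutamate carrier of the malate-aspartate shuttle for oxidative ATP supply.

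The 3 guide strands of the deleted cluster are shown first because the deletion removes them, with the seed (bases 2 to 8) in capitals. RefSeq (GRCm38.p6) places all 3 on the minus strand of chromosome 6, miR-183-5p at chr6:30169711-30169732, miR-96-5p at chr6:30169506-30169528 and miR-182-5p at chr6:30165962-30165986.
miR-183-5p: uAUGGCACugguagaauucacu
miR-96-5p: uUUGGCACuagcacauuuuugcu
miR-182-5p: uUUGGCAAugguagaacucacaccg
The miR-96-5p and miR-182-5p seeds share all but the last base, and the miR-183-5p and miR-96-5p seeds share all but the first. The sense strand of annotated 3′UTRs (GENCODE vM21, GRCm38) was searched for the 7 bases complementary to each seed, GTGCCAT for miR-183-5p, GTGCCAA for miR-96-5p and TTGCCAA for miR-182-5p.

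Of the 46 members with an annotated 3′UTR, 13 (28.3%) held at least 1 such match, against 24.1% of all 21020 genes with a 3′UTR. The shares were 10.9% for miR-183-5p (9.37% of all genes), 13.0% for miR-96-5p (8.38%) and 13.0% for miR-182-5p (11.4%), with no allowance for UTR length. A match to both miR-96-5p and miR-182-5p was held by 3 members, Slc25a1, the folate and FAD carrier Slc25a32 and the coenzyme A carrier Slc25a42. The share of all genes with both matches was not computed, so this count is no result about the family. The matches below are shown with the complementary bases in capitals and flanking UTR in lower case.
Slc25a1, miR-182-5p match, chr16:17925248-17925254 (minus strand): ctctcaggaccaccTTGCCAAgga
Slc25a32, miR-96-5p match, chr15:39093378-39093384 (minus strand): gtatgggggaaaggGTGCCAAagt
Slc25a32, miR-182-5p match, chr15:39092525-39092531 (minus strand): gcaagttggggaggTTGCCAAaag
Slc25a42, miR-96-5p match, chr8:70184370-70184376 (minus strand): tattttgaagatttGTGCCAAcag
Slc25a42, miR-182-5p match, chr8:70185918-70185924 (minus strand): gctgcacctgaccaTTGCCAActa
In the 590-base 3′UTR of Slc25a1 (gene at chr16:17925223-17928219) the miR-182-5p match lies near the end, at position 559. In Slc25a32 both matches lie deep in a UTR of 4739 bases and are followed by A. These matches describe the sequence and were not tested for binding.

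The members were mostly moderate in level. Levels are given as CPM, the counts of a gene per 1000000 counts of its library, and with 1 tag per transcript they do not depend on gene length. In the 9 WT TG libraries, 8 members had a mean of 100 CPM or more, 22 lay between 10 and 100, 9 between 1 and 10 and 8 under 1, of which 2 were at 0 in all 9. In the 9 WT corneas the corresponding numbers were 5, 20, 14 and 8, with 3 at 0 in all 9. The summed family was 2844 ± 82.3 CPM (SD, n = 4) in SNS-strain WT TG and 1958 ± 76.9 CPM (n = 4) in SNS-strain WT cornea. In SNS-CKO TG the sum was 2936 ± 18.3 CPM (n = 3), in MS-CKO TG 2860 ± 114 CPM (n = 5) and in MS-strain WT TG 2921 ± 95.8 CPM (n = 5).

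TG libraries held 2934793 to 5387042 counts and cornea libraries 2366126 to 6741290, with 37 to 43 members detected in each. The summed CPM of 9 sensory neuron markers was 7421 to 9251 in TG and 0 to 11.3 in cornea, and that of 6 corneal epithelial markers 69490 to 82300 in cornea and 264 to 345 in TG. The rows of Mir183, Mir96 and Mir182 were at 0 in every library, so the deletion could not be checked from these data. Sample titles number the mice or samples of each group, and each TG or cornea library was taken as 1 mouse.

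Slc25a1 was higher in SNS-CKO than in WT TG, and no other member passed the test there. SNS-CKO TG libraries had 205, 175 and 192 CPM, and SNS-strain WT TG libraries had 115, 106, 103 and 109 CPM. The groups did not overlap, and the 3 SNS-CKO libraries were also above every MS-strain TG library. Slc25a1 rose 1.77-fold, a log2 change of 0.82 (SE 0.09, adjusted p = 9.5e-06 with edgeR's quasi-likelihood test, adjusted over 12769 genes). Of the 36 members tested 1 was called, against 0.0392% of all genes tested, and 4 members and 852 genes had an unadjusted p under 0.05. Since Slc25a1 was chosen with this result known, its value is a description. An exact two-sided permutation test of the 7 libraries gave p = 0.0571, the smallest that 3 against 4 libraries can give.

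With the strain names read the other way, the comparison that stands for SNS-CKO used other libraries and Slc25a1 did not pass (log2 change 0.05, adjusted p = 0.998 with edgeR). The libraries of the rise were then in the MS comparison, together with the 3 other TG libraries whose column names end in B2. There the log2 change was 0.59 (adjusted p = 0.091, edgeR). All 7 SNS-strain TG libraries had column names that end in B2, so the rise lies within the B2 libraries. B2 was read as a batch, which the labels do not state. The letters before B2 also differ, with TG or Cornea in SNS columns and mRNA in MS columns. Libraries whose column names lack B2 are called unmarked below, since the names state no order in time. In TG of SNS-CKO and SNS-strain WT, summed markers of neurons (7421 to 7869 against 7612 to 8113 CPM), of satellite glia and Schwann cells (15990 to 20539 against 17120 to 19510 CPM) and of myeloid cells (120.2 to 151 against 107 to 146 CPM) overlapped. Summed hemoglobin and other erythrocyte markers were 859 to 1404 CPM in SNS-CKO and 1144 to 3370 CPM in WT. Of these 5 markers 1 was called lower in SNS-CKO, beside 5 of all 12769 genes called. Their median log2 change was -1.0, and their part in the result was not tested. In these bulk libraries a difference in the number of cells of a type and in RNA per cell cannot be told apart.

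In MS-CKO TG, Slc25a1 was at 92.6, 106, 105, 131 and 118 CPM, and in MS-strain WT TG at 109.8, 78.9, 105, 97.6 and 111 CPM. The groups overlapped, and the log2 change of 0.13 (SE 0.11) did not pass (adjusted p = 0.999, edgeR). In cornea, SNS-CKO libraries had 98.3, 79.2 and 76.2 CPM and WT libraries 88.6, 99.9, 82.4 and 96.2 CPM, a log2 change of -0.12 (SE 0.14, adjusted p = 0.889). MS-CKO corneas had 70.5, 86.7, 87.4, 111 and 96.7 CPM and WT corneas 84.3, 67.2, 64.8, 74.7 and 97.5 CPM, a log2 change of 0.23 (SE 0.14, adjusted p = 0.999). Groups overlapped in both corneal comparisons. Within the MS strain Slc25a1 was lower in the 7 unmarked libraries than in the 3 B2 libraries. The ranges were 78.9 to 109.8 against 111 to 131 CPM in TG and 64.8 to 87.4 against 96.7 to 111 CPM in cornea. Of the 3 B2 libraries of each tissue, 2 were MS-CKO. With batch as a covariate the MS-CKO log2 changes were 0.076 in TG and 0.15 in cornea.

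The TG response of Slc25a1 differed between the strains by 0.69 on the log2 scale (SE 0.16), with an unadjusted p of 0.000104 and an adjusted p of 0.356 in edgeR, so the difference did not pass over 13728 genes. None of the 36 members tested passed, against 0.00728% of all genes, and 3 members and 572 genes had an unadjusted p under 0.05. DESeq2 called Slc25a1 (adjusted p = 0.046), as did edgeR with library batch as a covariate (log2 difference 0.74, adjusted p = 0.018). In cornea the difference was -0.35 (adjusted p = 0.999) and 0 of 39 members were called, against 0% of all genes. There 1 member had an unadjusted p under 0.05, as had 323 of all genes tested, and DESeq2 called 0.

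**Figure D1:**
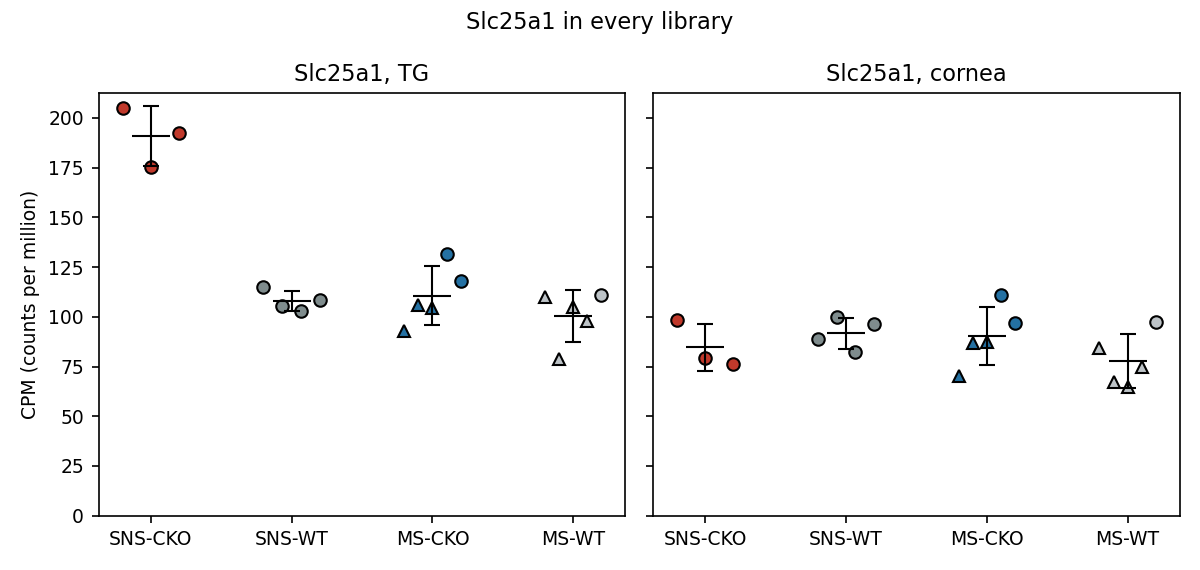
Slc25a1 in each TG and cornea library (y axis, CPM, from 0) by group (x axis). Circles are libraries whose column names end in B2, triangles are libraries without that mark, and bars give the mean ± SD. The 3 SNS-CKO TG libraries sit at 175 to 205 CPM, above all other TG libraries, and in cornea the groups overlap.

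The other 35 members tested in SNS-CKO TG had log2 changes from -0.44 to 0.39 and adjusted p of 0.701 or more. The uncoupling protein-like carrier Slc25a27 had 32.6, 42.9 and 48.2 CPM in SNS-CKO and 34.8, 31.8, 26.3 and 33.8 CPM in WT (log2 0.38, SE 0.16, adjusted p = 0.701), and the groups overlapped. Slc25a39, the glutathione carrier, had 146, 159.6 and 144 CPM against 123, 136, 136 and 119.5 CPM, without overlap but short of the threshold (log2 0.22, SE 0.09, adjusted p = 0.712). The median log2 change over the 36 members was -0.05, and 11 members were too low to be tested.

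In this comparison members with and without a seed match had nearly the same median. The 13 with a match had a median log2 change of -0.05 in SNS-CKO TG, with 6 above 0, and the 23 without had a median of -0.06, with 9 above 0. Without Slc25a1 the median of the remaining 12 was -0.05. Slc25a32, which holds the same pair of matches, had 30.6, 31.5 and 36.2 CPM in SNS-CKO and 24.8, 31, 24.7 and 27.3 CPM in WT (log2 0.27, adjusted p = 0.803, edgeR). Slc25a42, at 4.04, 2.93 and 6.36 CPM against 5.84, 3.88, 3.36 and 5.04 CPM, had a log2 change of -0.05 (adjusted p = 0.993). Of these 3 members with both matches only Slc25a1 passed, and its result was known when the family was chosen. The share of all genes with both matches that passed was not computed, so this count is no result about the matches.

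In MS-CKO TG, 0 of 35 members were called by edgeR, against 0% of all 12480 genes. At an unadjusted p under 0.05 there were 2 members and 372 genes, and DESeq2 called 0 genes. Slc25a33, a pyrimidine nucleotide carrier, had 49.2, 50.8, 49.4, 46.6 and 41.9 CPM in MS-CKO and 61.4, 71.4, 65.5, 68.3 and 52.6 CPM in WT. These groups did not overlap, and the log2 change was -0.43 (SE 0.12, adjusted p = 0.999). Slc25a33 also moved with batch, since all B2 TG libraries lay between 39.4 and 52.6 CPM and the unmarked ones between 49.2 and 71.4 CPM. Among the unmarked libraries alone its log2 change was -0.41 (SE 0.13, adjusted p = 0.998, edgeR). Slc25a42 had 1.85, 4.27, 1.87, 3.14 and 1.02 CPM against 4.16, 5.7, 7.39, 3.34 and 4.14 CPM, overlapping (log2 -1.0, SE 0.43, adjusted p = 0.999). The ornithine carrier Slc25a15 had 8.47, 13.3, 7.47, 10.2 and 11.2 CPM against 8.85, 19.2, 13.6, 17.1 and 11.7 CPM, also overlapping (log2 -0.48, SE 0.25).

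In SNS-CKO cornea, 0 of 34 members were called by edgeR, against 0% of all 11463 genes. At an unadjusted p under 0.05 there were 2 members and 715 genes, and DESeq2 called 0. The ADP/ATP carrier Slc25a5 had 241, 214 and 218 CPM in SNS-CKO and 192, 191, 171 and 196 CPM in WT (log2 0.26, SE 0.11, adjusted p = 0.781). Slc25a35, whose substrate is not settled, had 9.33, 8.63 and 7.6 CPM against 4.35, 4.27, 3.38 and 7.24 CPM (log2 0.79, SE 0.36). Neither pair of groups overlapped, and neither passed. Slc25a28 (mitoferrin 2, an iron carrier) had 18.3, 22.9 and 14.8 CPM against 24.1, 22.3, 26.2 and 24.8 CPM, overlapping (log2 -0.39, SE 0.20, adjusted p = 0.793).

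In MS-CKO cornea, 0 of 35 members were called by edgeR, against 0% of all 11830 genes. At an unadjusted p under 0.05 there were 2 members and 421 genes, and DESeq2 called 0. The glycine carrier Slc25a38 had 9.58, 9.18, 14.5, 9.43 and 13 CPM in MS-CKO and 16.3, 19.9, 12.6, 14.9 and 16.1 CPM in WT (log2 -0.51, SE 0.21, adjusted p = 0.999). Slc25a46, an outer-membrane protein of the family linked to mitochondrial dynamics, had 38.3, 33.1, 28.3, 47.2 and 30.9 CPM against 28.4, 26.4, 25.7, 16.6 and 35 CPM (log2 0.44, SE 0.19). The aspartate/glutamate carrier Slc25a12 had 34.3, 30.4, 23.9, 33.2 and 25.3 CPM against 34.7, 35.5, 32.1, 33.6 and 51.1 CPM (log2 -0.33, SE 0.17). The groups overlapped for all 3.

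**Figure D2:**
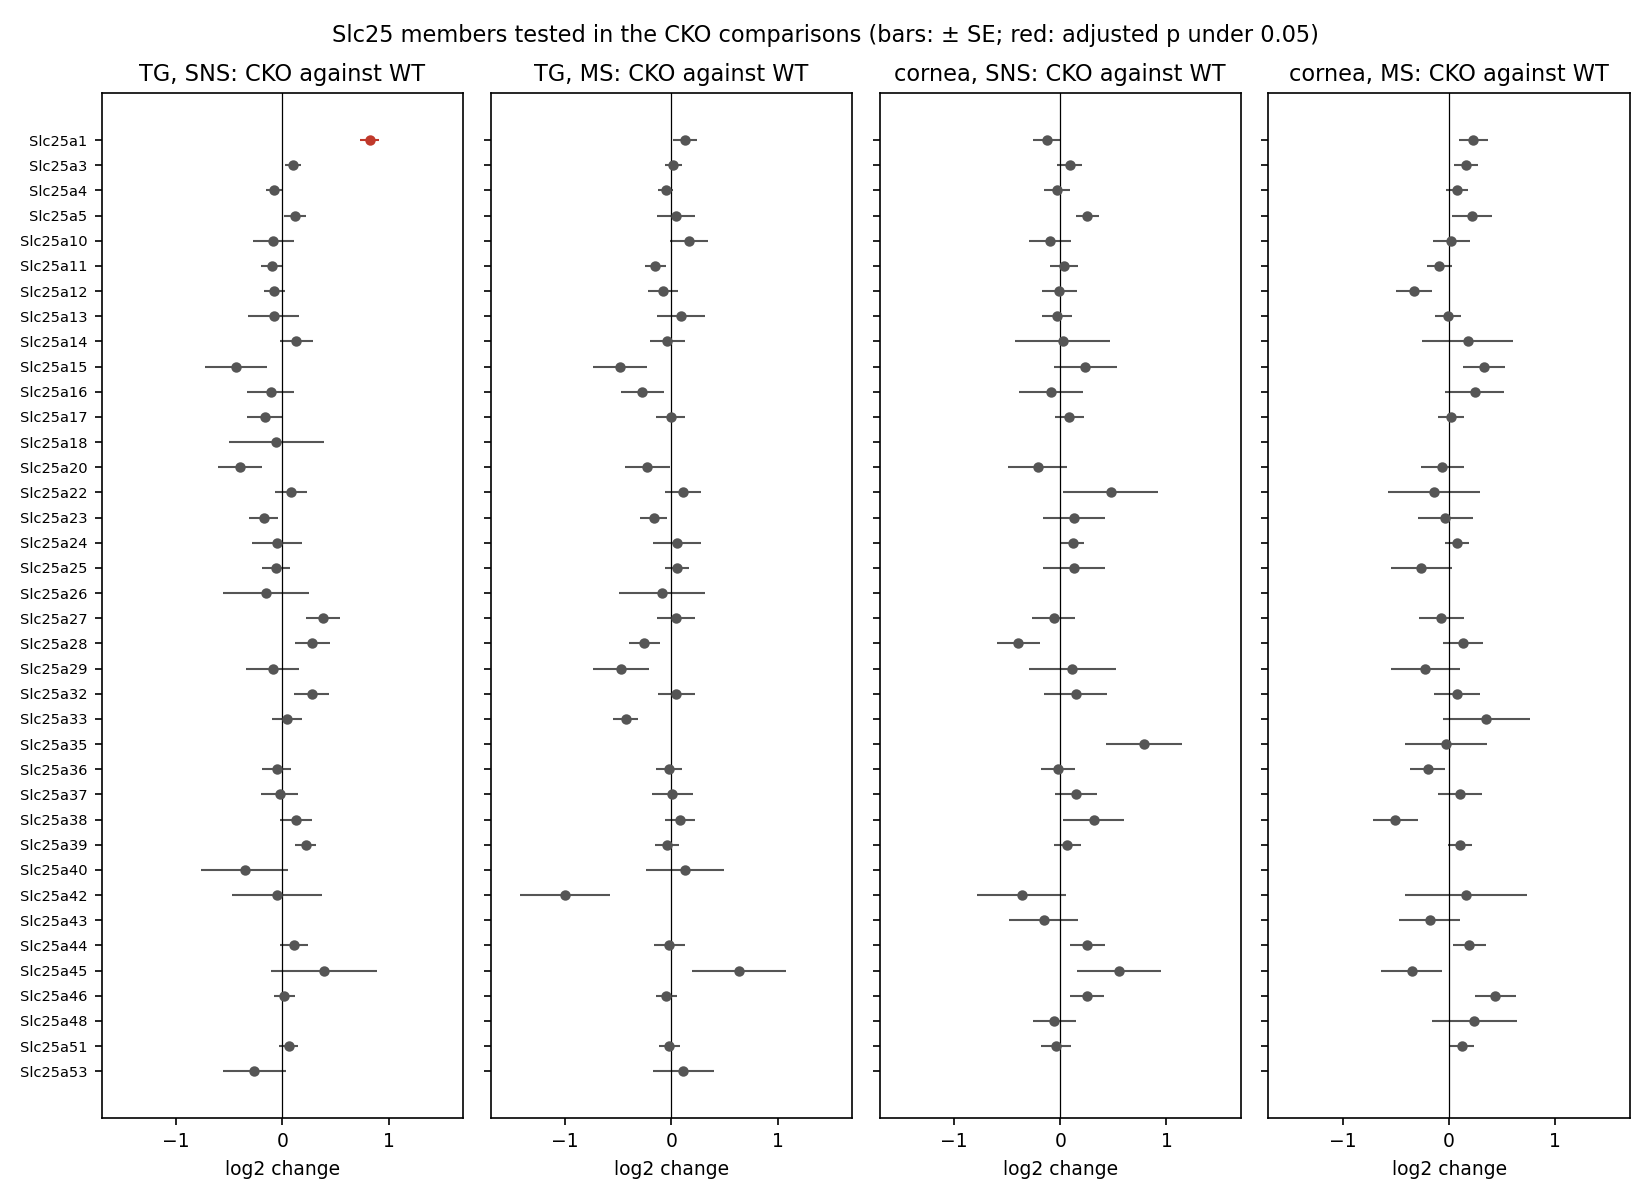
Log2 change, CKO against WT, of each tested member but 1 in the 4 comparisons (edgeR, with SE), with called members marked. Slc25a1 in SNS-CKO TG, at 0.82, is the 1 called value, and the other members plotted for that comparison lie between -0.44 and 0.39.

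No gene on the lists of genes that work beside the carriers passed in a CKO comparison. Of all genes tested, 0.0392% were called in SNS-CKO TG and 0% in MS-CKO TG and in both corneal comparisons. The counts of 0 below are thus no result about the lists. Of the 22 enzymes of citrate, malate and acetyl-CoA metabolism, 22, 22, 21 and 21 were tested in SNS-CKO TG, MS-CKO TG, SNS-CKO cornea and MS-CKO cornea, and 0 were called in each. The same count of 0 was found among the tested genes of the other lists. Of the 13 genes of the TOM70 and TIM22 route that inserts carriers into the inner membrane, 11 or 12 were tested. Of the 15 ATP synthase genes, 14 or 15 were tested. All 8 genes of outer-membrane, pyruvate and calcium entry and all 6 regulators of mitochondrial biogenesis were tested. Of the 5 family members with other symbols (the uncoupling proteins and Mtch1 and Mtch2), 3 to 5 were tested.

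The carriers differed between TG and cornea far more than between genotypes. Among WT libraries of the SNS strain, 26 of 39 members tested were called, 19 higher in TG and 7 higher in cornea, where 78.5% of all genes were called (41.3% higher and 37.2% lower in TG). In the MS strain 28 of 38 were called, 19 higher and 9 lower in TG, with 77.4% of all genes called (40.4% higher, 37% lower). The members were thus called somewhat less often than genes at large, with a larger share toward TG and a smaller share toward cornea. These shares were not tested against each other. The same direction in both strains was held by 16 members for TG and 7 for cornea. The median member was 0.27 (SNS) and 0.44 (MS) higher in TG on the log2 scale, beside 0.07 and 0.05 for all genes. With total counts in place of TMM factors the member medians moved to 0.39 and 0.59 and those of all genes to 0.19 and 0.21, and 31 and 34 members were called beside 10285 of 13196 and 10316 of 13401 genes.

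The aspartate/glutamate carriers of the malate-aspartate shuttle divided between the tissues by paralogue. Slc25a12 (aralar), an aspartate/glutamate carrier, was at 173, 213, 234 and 189 CPM in SNS-strain WT TG and 46.1, 37.1, 47.3 and 46.3 CPM in WT cornea. Its paralogue Slc25a13 (citrin) ran the other way, at 16.9, 11.6, 16.5 and 12.5 CPM in TG and 73.2, 90.9, 82.4 and 77.9 CPM in cornea. Neither gene's tissues overlapped. The log2 difference of TG over cornea was 2.09 (SE 0.12) for Slc25a12 and -2.61 (SE 0.15) for Slc25a13 in the SNS strain, and 1.98 (SE 0.16) and -2.66 (SE 0.14) in the MS strain (adjusted p from 3.31e-14 to 9.68e-10, edgeR).

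The ADP/ATP carriers showed the same division to a smaller degree. Slc25a4, the heart and muscle type, had 736, 838, 798 and 788 CPM in SNS-strain WT TG and 260.4, 246, 313 and 283 CPM in cornea, a log2 difference of 1.41 (SE 0.09), with 1.5 (SE 0.09) in the MS strain. Slc25a5, the more widely expressed type, had 103, 117, 116 and 109 CPM in TG and 192, 191, 171 and 196 CPM in cornea, a log2 difference of -0.87 (SE 0.09), with -0.72 (SE 0.16) in the MS strain. Skeletal muscle markers summed to 3.36 to 23.4 CPM in TG and 0.89 to 8.69 CPM in cornea, and the part of muscle in these values was not tested. Slc25a5 has pseudogene copies, so its counts are uncertain. Slc25a3, the phosphate carrier that works beside them in ATP synthesis, had means of 418 ± 19.6 CPM in TG and 389 ± 36.3 CPM in cornea of the SNS strain (n = 4 each) and was not called there (log2 difference -0.01), but was called in the MS strain (0.25, SE 0.09, adjusted p = 0.022, edgeR).

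Among the calcium-regulated ATP-Mg/phosphate carriers, Slc25a25 and Slc25a23 were higher in TG and Slc25a24 in cornea. Slc25a24 had 16.9, 13.2, 11.8 and 18.7 CPM in SNS-strain WT TG and 159, 162, 155 and 158 CPM in cornea, a log2 difference of -3.51 (SE 0.13), and -3.63 (SE 0.15) in the MS strain. Slc25a25 had 71, 84.8, 65.9 and 55.2 CPM in TG and 9.69, 11.5, 12.3 and 9.57 CPM in cornea, a log2 difference of 2.58 (SE 0.17), and 2.70 (SE 0.18) in the MS strain. Slc25a23 differed by 2.10 (SE 0.19) and 1.37 (SE 0.14), with means of 61.2 ± 10.2 and 13 ± 3.68 CPM in the SNS strain. Adjusted p were 6.27e-08 or less for all 3 genes in both strains (edgeR).

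The widest differences toward TG were in Slc25a53, Slc25a33 and Slc25a22. Slc25a53, whose substrate is not settled, had a mean of 9.99 ± 3.01 CPM in SNS-strain WT TG and 0.245 ± 0.183 CPM in cornea (n = 4 each), a log2 difference of 5.18 (SE 0.56), and 4.38 (SE 0.58) in the MS strain. Over all cornea libraries Slc25a53 was at 0 to 0.953 CPM, where 3 counts in a library are 0.445 to 1.27 CPM. The size of its difference thus rests on few cornea counts. Slc25a33 had 39.4, 45.8, 47.4 and 46.9 CPM in TG and 2.34, 1.8, 3.8 and 2.07 CPM in cornea, a log2 difference of 4.11 (SE 0.23), and 4.29 (SE 0.20) in the MS strain. The mitochondrial glutamate carrier Slc25a22 had 35.6, 42.7, 45.4 and 38.3 CPM in TG and 2.01, 2.25, 3.38 and 3.1 CPM in cornea, a log2 difference of 3.81 (SE 0.23), and 3.43 (SE 0.26) in the MS strain. Each was called in both strains, and Slc25a33 overlaps the antisense gene Gm13068. Slc25a23, Slc25a25, Slc25a35, Slc25a37 and Slc25a46 also overlap annotated antisense exons, so their counts are uncertain where strand was not used in counting. Slc25a14, an uncoupling protein-like carrier, differed by 2.96 (SE 0.25) and 3.26 (SE 0.25), and Slc25a46 by 1.87 (SE 0.11) and 2.09 (SE 0.15), both higher in TG.

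Toward cornea, the choline-linked carrier Slc25a48 had the widest difference. It was at 0 in all 9 WT TG libraries, and at 30.4, 28.1, 21.6 and 23.3 CPM in SNS-strain WT corneas and 9.32, 14.2, 6.2, 14.9 and 17.1 CPM in MS-strain WT corneas. Against a floor of 3 counts over the TG group (0.211 CPM in the SNS strain, 0.138 CPM in the MS strain) it was at least 123-fold higher in cornea in the SNS strain and at least 89.5-fold higher in the MS strain. Slc25a43, with no settled substrate, had means of 0.508 ± 0.663 CPM in TG and 9.25 ± 2.46 CPM in cornea of the SNS strain (log2 -4.22, SE 0.54, and -5.01, SE 0.62, in the MS strain). Over all TG libraries Slc25a43 was at 0 to 1.48 CPM, where 3 counts in a library are 0.557 to 1.02 CPM. The size of its difference thus rests on few TG counts. Slc25a35 differed by -2.72 (SE 0.48) and -1.92 (SE 0.43), and the peroxisomal carrier Slc25a17 by -0.77 (SE 0.15) and -1.0 (SE 0.13). Slc25a1 itself was not called between the tissues in either strain (log2 0.11, adjusted p = 0.308, and 0.22, adjusted p = 0.121, edgeR), and was called in both with total counts (0.23 and 0.38). In the MS strain it was also called without WT TG library 2 (0.33, adjusted p = 0.028) and without WT cornea library 5 (0.29, adjusted p = 0.044), and in the SNS strain the difference was 0.0042 without WT cornea library 3.

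**Figure D3:**
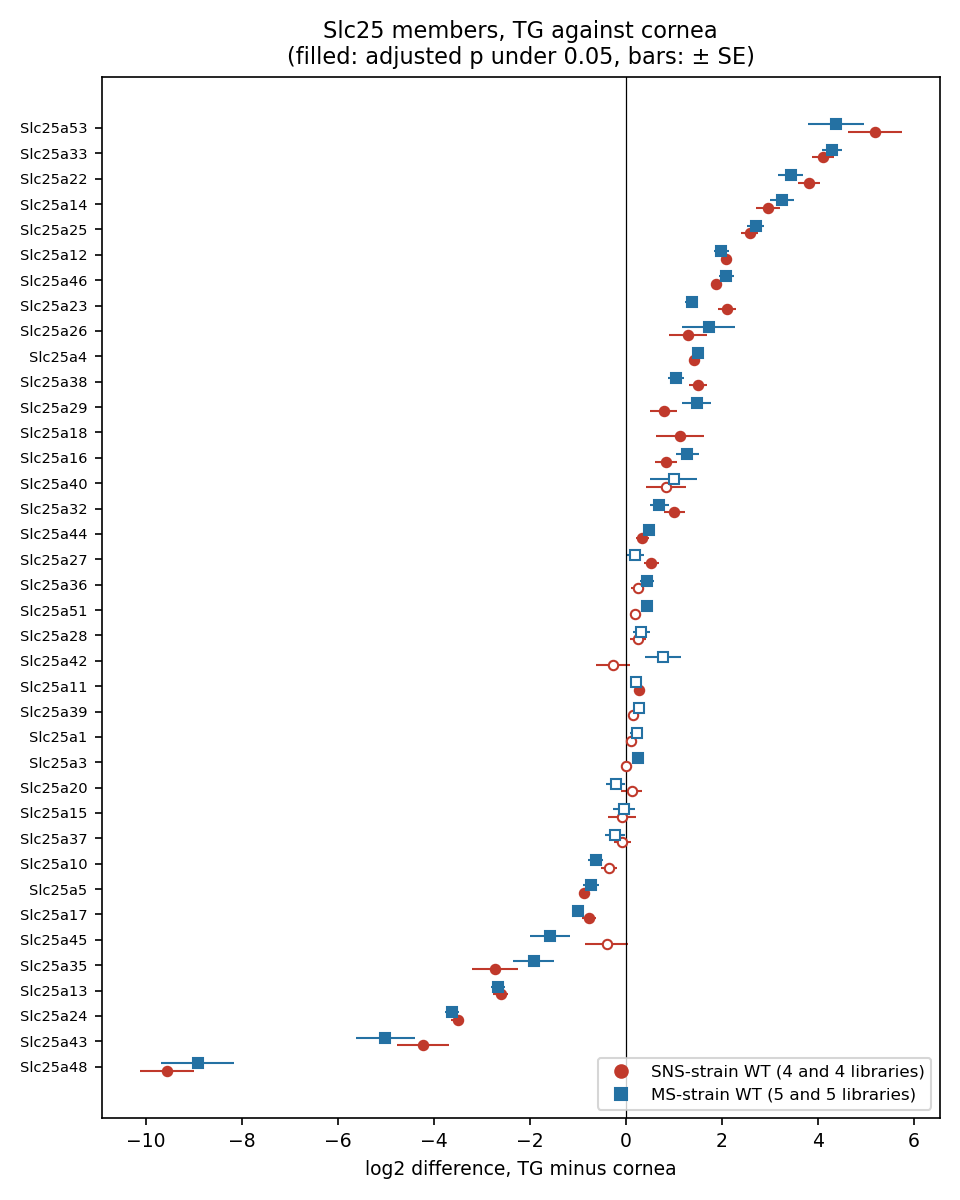
Log2 difference of TG minus cornea (x axis) for each tested member but 1 (y axis) in WT libraries of the SNS and MS strains, as points with bars of ± SE from edgeR, filled where the adjusted p was under 0.05. Slc25a12, at 2.09 and 1.98, and its paralogue Slc25a13, at -2.61 and -2.66, lie on opposite sides of 0.

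Genes that work beside the carriers were also compared between the tissues, where 78.5% (SNS) and 77.4% (MS) of all genes were called in either direction. Of 22 citrate, malate and acetyl-CoA enzymes, 13 were higher and 4 lower in TG in the SNS strain and 14 higher and 2 lower in the MS strain (median log2 difference 0.59 and 0.83, all genes 0.07 and 0.05). Of 11 tested genes of carrier import, 7 and 9 were higher and 0 lower in TG, and of 14 tested ATP synthase genes 11 and 13 were higher and 0 lower. The remaining lists were mixed. Of 8 genes of outer-membrane, pyruvate and calcium entry, 3 were higher and 3 lower in TG (SNS), and 1 and 3 (MS). Of 6 biogenesis regulators, 2 were higher and 3 lower (SNS), and 2 and 2 (MS). Of the family members with other symbols, 1 was higher and 1 lower in each strain.

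Strain levels were not tested against each other, because all SNS libraries were of the B2 batch and only 3 of 10 MS libraries of each tissue were. Slc25a5 in TG was at 52.8 to 90.7 CPM in the 7 unmarked libraries and at 103 to 135 CPM in the 10 B2 libraries. In cornea it was at 104 to 125 CPM and 145 to 241 CPM. Neither pair of ranges overlapped. Slc25a12 in TG was at 125 to 150.4 CPM in unmarked and 173 to 234 CPM in B2 libraries. In cornea its ranges overlapped (23.9 to 35.5 and 25.3 to 52.6 CPM). Slc25a48 in cornea was at 3.96 to 14.9 CPM and 17.1 to 30.8 CPM. The TG-cornea comparisons lie within a strain, where both tissues have the same number of libraries in each batch.

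**Figure D4:**
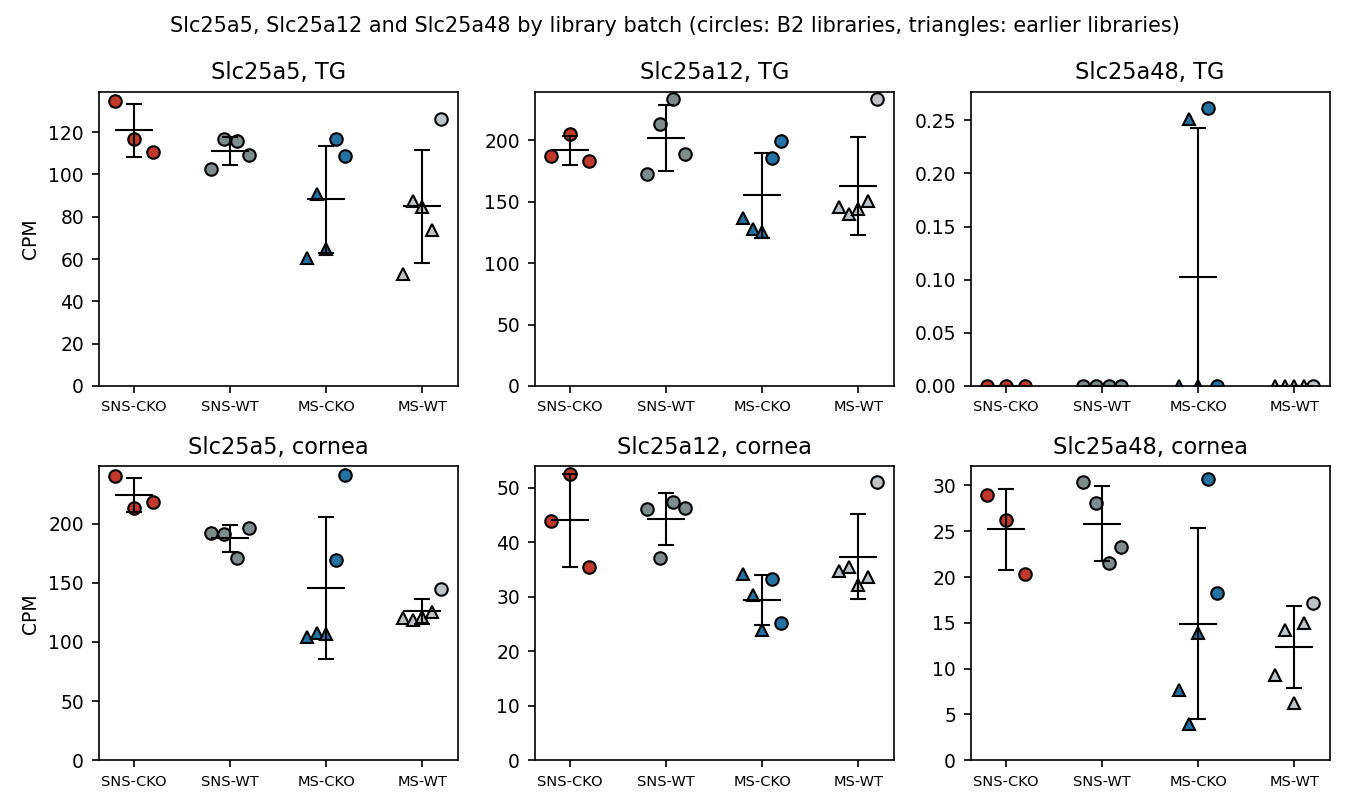
CPM of Slc25a5, Slc25a12 and Slc25a48 in each TG and cornea library, with circles for B2 and triangles for unmarked libraries (named earlier in the figure). Slc25a5 does not overlap between batches in either tissue, at 52.8 to 90.7 against 103 to 135 CPM in TG.

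In the sorted pools, carriers were detected less evenly. CRMC pools held 2261266 to 10803867 counts but only 1650 to 6455 genes, and 4 to 18 members each. Spleen pools held 5140261 to 9790238 counts, 7323 to 10559 genes and 20 to 32 members. Summed myeloid markers were 2994 to 13651 CPM in CRMC and 5423 to 7032 CPM in spleen pools, but CRMC pools also held 10322 to 42154 CPM of corneal epithelial markers and 2059 to 28099 CPM of keratocyte markers, and spleen pools 13808 to 33810 CPM of neutrophil and 2788 to 55665 CPM of erythrocyte markers. The part of these cells in the values below was not tested. Each genotype was 1 pool of corneas or spleens, so genotypes were compared as ratios with no test, and intervals cover counting error only.

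In CRMC pools 25 members were at 0 in all 4, and only Slc25a4 and Slc25a46 were above 0 in all 4. In the order KO, WT of the KO strain, MS-CKO and its WT, Slc25a4 was at 337, 179.99, 753 and 344 CPM in CRMCs and 72.9, 114, 58.3 and 93.3 CPM in spleen. Slc25a1 was at 59.6, 0, 160.04 and 358 CPM in CRMCs and 72.3, 21.8, 72.4 and 67.1 CPM in spleen. A carrier as abundant elsewhere as Slc25a3 was at 379.6, 0, 491 and 977 CPM in CRMCs and 839, 614, 781 and 657 CPM in spleen.

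In spleen pools 18 members were above 0 in all 4. The mitoferrin Slc25a37, which supplies iron for heme synthesis in erythroid cells, was at 84.8, 153, 207 and 146 CPM in spleen. Slc25a45 was at 159.9, 192, 143 and 86.1 CPM in spleen. Both were at 0 in all CRMC pools, as were 25 members in total. No fold is given, since the abundant Slc25a3 was also at 0 in the CRMC pool of KO-strain WT. With genotype as a block, edgeR called 0 of 23 members between CRMCs and spleen, against 2.01% of all 6483 genes, with a smallest adjusted p of 0.0926. At an unadjusted p under 0.05 there were 5 members and 1542 genes. DESeq2 called 14 members, all lower in CRMCs, beside 4081 of the 6483 genes, so the members were called about as often as genes at large.

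Between null and WT pools, 5 of 9 CRMC members with enough counts (at least 50 over each pair) were at least 2-fold different the same way in both strains, beside 46.2% of all genes. Slc25a46 was lower in the null pools, with a ratio of 0.134 (95% exact binomial interval 0.121 to 0.147) for KO and 0.236 (0.211 to 0.263) for MS-CKO. Of those higher in the null pools, Slc25a5, Slc25a24 and Slc25a51 were detected in both null pools and at 0 in both WT pools. The WT pools held 1650 and 3380 detected genes against 3488 and 6455 in the null pools. These members met the count minimum through the null pools alone. A difference past 2-fold was then fixed in advance and is no result about them. In spleen 1 of 23 members was past 2-fold the same way in both strains, beside 17.9% of all genes. That member was Slc25a13, at 21.8 CPM in KO and 0 in its WT pool, so it met the minimum through the KO pool alone. In MS-CKO and WT it was at 20.4 and 6.65 CPM (ratio 3.07, 2.3 to 4.15). Slc25a1 had a ratio of 3.32 (2.69 to 4.11) in KO spleen and 1.08 (0.967 to 1.20) in MS-CKO spleen. In CRMCs the ratio of Slc25a1 was 0.447 (0.420 to 0.476) in MS-CKO. In the KO strain it was at 59.6 CPM in KO and 0 in WT. It met the minimum there through the KO pool alone, so its direction in that strain is no result.

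**Figure D5:**
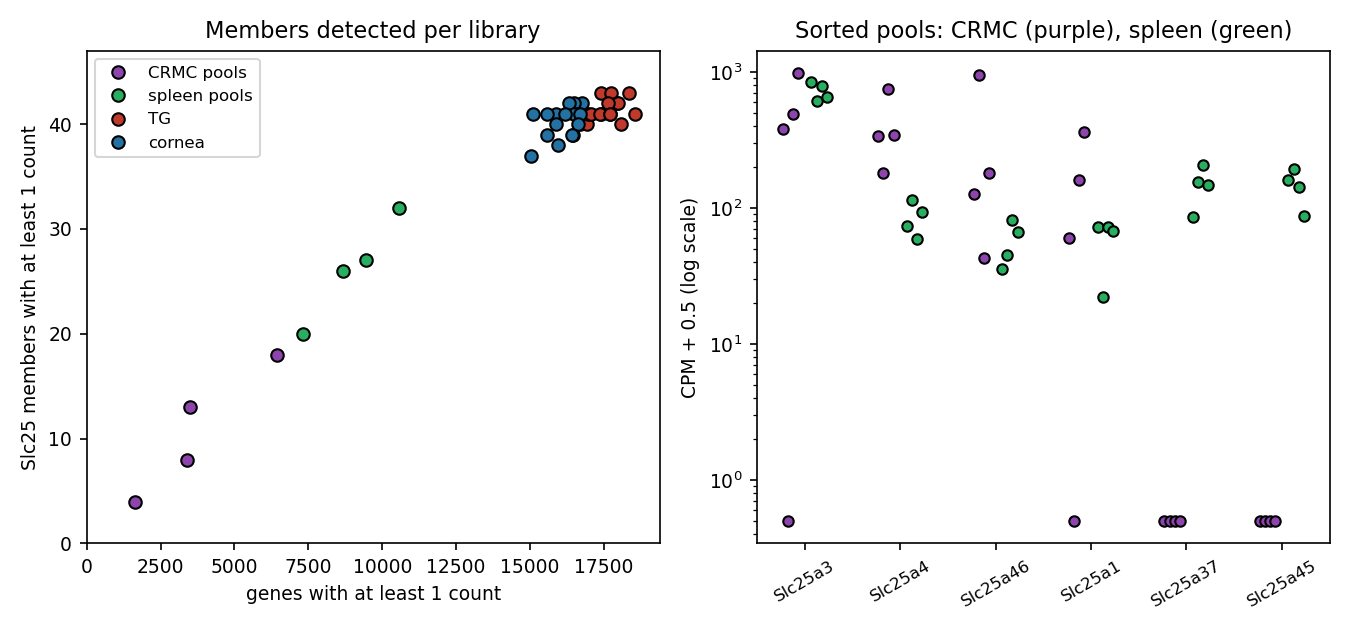
Left, members with at least 1 count against genes with at least 1 count, 1 point per library or pool; right, CPM + 0.5 on a log axis of selected members in the 4 CRMC (purple) and 4 spleen (green) pools, 1 point per pool. Slc25a3 is at 614 to 839 CPM in every spleen pool and at 0 in the CRMC pool of KO-strain WT.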

How the data were processed

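Libraries of 3′ mRNA were sequenced by the authors, whose alignment used STAR and the mm10 genome and whose gene counts came from HTSeq. Of these tools, no source used here gives a version or the annotation. Values as deposited were raw counts per gene. Of 54 count columns 42 were used. The other 12, of KO-strain TG and cornea, equalled MS-strain columns value for value and were not used. Strand use in counting was not stated.

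Counts were scaled to CPM by each library's total. Group comparisons were fitted over all genes with edgeR 4.0.16 (R 4.3.3, limma 3.58.1; TMM factors, filterByExpr, quasi-likelihood F-test, Benjamini-Hochberg threshold 0.05), a procedure tested on simulated data. DESeq2 1.42.0, total counts, no filter, batch, a replicate block, the other reading of strain names and leaving out each library were alternatives. Sorted pools were compared as CPM ratios with exact binomial 95% intervals, adding 0.5 CPM for the 2-fold rule. Tables were made with Python 3.11.15 and pandas 2.3.3.

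Slc25a1, any called member and the 3 members with the smallest p of each CKO comparison were named, with up to 8 members each way for TG against cornea (called the same way in both strains, mean of at least 5 CPM) and paralogues of the same substrate. Results of 1 member and 1 seed match are not reported here. Other members named in the text were chosen after their values were seen. The members and gene lists were chosen with earlier results of these data known.

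Where a gene was at 0 throughout a TG group, a floor of 3 counts over the group was used. Intervals and floors cover counting error only.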

Additional observations from a re-analysis of the deposited data

Results flagged for a closer look

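Named members were paired with groups of 4 or 5 libraries, and each of 78 pairings was tested for a single library far from the others. Pairings share libraries and are not independent, and chance gives about 1 in 20 for a single pairing. Of the 78 pairings, 5 stood out. Library 5 of MS-strain WT was the high one in 3 of them, with Slc25a12 at 234 CPM in TG (others 140.1 to 150.4), Slc25a12 at 51.1 CPM in cornea (others 32.1 to 35.5) and Slc25a5 at 145 CPM in cornea (others 119 to 125). It is the only B2 library of its group. In SNS-strain WT, library 2 had Slc25a53 at 14.5 CPM in TG (others 8.18 to 8.90) and Slc25a12 at 37.1 CPM in cornea (others 46.1 to 47.3).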

How the results depend on the processing

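Of 770 values recomputed under alternatives, 169 that answer a comparison and 589 of single members kept their direction and side of the threshold (counts within 1.5 times). With the other reading of the strain names, the count of members called in SNS-CKO TG was 0 and the log2 change of Slc25a1 was 0.050. That reading also reversed Slc25a39 in SNS-CKO TG (-0.082), Slc25a5 (-0.18) and Slc25a35 (-0.20) in SNS-CKO cornea and Slc25a38 in MS-CKO cornea (0.073), and Slc25a1 in SNS-CKO cornea (0.18). It uses other libraries. For the difference between strains in TG, DESeq2 and batch as a covariate each called 1 member. CRMCs against spleen gave 14 of 23 members with DESeq2 (4081 of 6483 genes) and 5 with no genotype block (1256 genes), and a 20-count minimum gave 2 spleen members past 2-fold. Leaving out 1 library at a time, Slc25a1 ranged from 0.77 to 0.88 in SNS-CKO TG with 1 to 1 members called, from 0.06 to 0.18 in MS-CKO TG, from -0.24 to -0.05 in SNS-CKO cornea and from 0.15 to 0.32 in MS-CKO cornea, with 0 members called in the last 3. Members called between TG and cornea ranged from 22 to 26 (SNS) and 27 to 30 (MS). With a replicate block, Slc25a1 in SNS-CKO TG was 0.82 (adjusted p = 0.000195, edgeR) with 1 member called, 0 members were called in the other CKO comparisons, and 25 (SNS) and 29 (MS) between TG and cornea. The block changed no call of Slc25a1. Correlations of same-numbered libraries ran from -0.08 to 0.18 between CKO and WT, so numbers were not taken as pairs there. Between TG and cornea they ran from -0.01 to 0.05 (SNS) and 0.02 to 0.15 (MS), short of the rule that every pair exceed 0.1, although all 5 MS libraries matched best their own number. The labels do not say whether the same mouse gave both tissues. The unmarked libraries alone and the other reading for the difference between strains were added after seeing the data. In CRMC pools few genes were detected (1650 to 6455), which limits the sorted values.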

Other observations

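Over the 17 TG libraries, the genes whose CPM followed Slc25a1 most closely among 12577 compared were Mtss1 (Spearman's rho 0.90), Ccdc50 (0.89), Clk1 (0.86), Gm16168 (0.85) and Tead1 (0.85). In the 14 libraries without SNS-CKO the values were 0.82, 0.82, 0.82, 0.77 and 0.81 in the same order. Among members, Slc25a14 (0.63) and Slc25a5 (0.62) were closest, and Slc25a4 (-0.55) and Slc25a33 (-0.54) were the most opposite. The libraries share batches and strains, so these values describe likeness and carry no test.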
